A study of Macaca mulatta with 2 samples.

Results

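The genes examined were those of the microtubule motors of the cell, taken from an RNA-seq table of macaque optic nerve by their symbols: kinesins (symbols beginning with KIF and a digit), the kinesin light chains *KLC1* to *KLC4*, cytoplasmic dynein subunits (DYNC1, DYNC2 and DYNL symbols) and the dynactin subunits *DCTN1* to *DCTN6*. Of the 16684 listed genes, 62 matched, 39 of them kinesins, 4 kinesin light chains, 13 dynein genes and 6 dynactin genes. The samples were 2 optic nerves of *Macaca mulatta*, wild-type in genotype and untreated, and both belong to 1 condition. The study's methods name a 12-year-old male as the source and the deposited design text speaks of different macaques, so whether the libraries, named Rep1 and Rep2, came from 1 animal or from 2 cannot be told. The spread between them may in part be technical. The RNA, collected after death, was amplified before sequencing (SMARTer v4 Ultra Low Input kit), and the values are TPM, a measure of the share of a gene among all transcripts, which are corrected for gene length and sum to 1000000 in each library.

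Kinesins walk along microtubules mostly toward the plus end, which in an axon points to the synapse, and cytoplasmic dynein walks toward the minus end, which points to the cell body. Dynactin is the large complex that joins dynein to its cargo and helps it to run over long distances. The optic nerve holds the axons of retinal ganglion cells together with oligodendrocytes, astrocytes and microglia, and the cell bodies of the axons lie in the retina. The RNA of a nerve is therefore mainly that of glia and other resident cells, which use the same motors to carry myelin RNAs, mitochondria and vesicles into their processes. In bulk RNA, fewer cells of a type and less RNA per cell cannot be told apart.

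The libraries differed in depth and in composition. The TPM value of 1 read was 17.2 times greater in Rep1 than in Rep2, and 6425 genes were listed at 0 in Rep1 against 2082 in Rep2. TPM does not give the number of reads, so the read numbers below are the smallest whole numbers that the values allow. All 7 oligodendrocyte markers were lower in Rep1, with summed levels of 45984 TPM in Rep1 and 212195 TPM in Rep2. So were all 6 astrocyte markers (774 and 5022 TPM) and 5 of 6 microglial markers (221 and 451 TPM), so RNA of the glia of an optic nerve was found in both, at different levels. After scaling by the median of ratios, 7, 4 and 4 of these markers were lower in Rep1. Of all genes above 0 in at least 1 library, 75.9% were lower in Rep1 as deposited and 64.8% after this scaling. The astrocyte and microglial counts after the scaling were near that share. Of the 8 photoreceptor markers 7 were higher in Rep1, with sums of 3322 and 10.2 TPM, and *CRX* was listed at 0 in Rep2. The 10 neuronal markers were split in the deposited values, 5 lower and 5 higher in Rep1, with sums of 2162 and 1603 TPM. With the median of ratios as scaling 1 was lower and 9 were higher. Most of the Rep1 sum was *SNAP25* and *SYT1*, at 1122 and 769 TPM, and most of the Rep2 sum was *THY1*, at 1535 TPM. The 5 markers of retinal ganglion cells summed to 360 and 184 TPM. Of these, *RBPMS* was at 155 TPM in Rep1 and at 99.9 TPM in Rep2, and *SNCG* was at 19.97 and 84.5 TPM. *POU4F2* was listed at 0 in both libraries, and *POU4F1* was at 0 in Rep1 and 0.0127 TPM in Rep2. *ISL1* was at 186 TPM in Rep1 and at 0 in Rep2. The part of these differences in the motor gene values was not tested. Every level below is therefore given for each library, and the mean ± SD over 2 libraries describes a spread that no test can judge, because the smallest p of a two-sided sign test on 2 libraries is 0.5.

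Several motor genes are close paralogs, and their levels can be set apart only where their sequences differ. Such a pair are the LC8 light chain genes, *DYNLL1* and *DYNLL2*, whose coding sequences in the RefSeq transcripts of Mmul_10 are both 270 bases long and differ at 54 bases (80.0% identity). They are shown because the level of one was far above that of the other in both libraries, and capitals in the second mark the bases that differ from the first.
DYNLL1: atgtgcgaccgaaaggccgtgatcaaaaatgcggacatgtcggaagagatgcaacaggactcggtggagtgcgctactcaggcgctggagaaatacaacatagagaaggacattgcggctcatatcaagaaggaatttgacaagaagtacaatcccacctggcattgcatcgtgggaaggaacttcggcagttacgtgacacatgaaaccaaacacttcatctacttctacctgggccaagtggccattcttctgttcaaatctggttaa
DYNLL2: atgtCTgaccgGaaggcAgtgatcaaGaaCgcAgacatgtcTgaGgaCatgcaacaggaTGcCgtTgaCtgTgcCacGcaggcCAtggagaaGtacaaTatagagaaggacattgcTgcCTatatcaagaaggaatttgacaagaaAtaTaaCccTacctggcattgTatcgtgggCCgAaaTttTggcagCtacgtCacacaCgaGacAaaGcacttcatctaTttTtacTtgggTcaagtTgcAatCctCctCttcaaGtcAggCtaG
The longest stretch they share is 25 bases long, and no window of 50 bases is identical between them.

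Among the kinesin paralogs, the longest identical coding run between any of the kinesin-1 heavy chains was 23 bases (*KIF5A* and *KIF5C*) and between any of the KIF1 genes 29 bases (*KIF1A* and *KIF1C*). *KIF4A* and *KIF4B* were the exception among the pairs compared, with 95.6% identity and a shared run of 100 bases, so reads from these genes could have been assigned to either.

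Most motor genes were detected. In both libraries 43 of the 62 (69.4%) were above 0, where 60.9% of all listed genes were. Another 17 (27.4%) were listed at 0 in Rep1 only, against 26.6% of all genes, and *KIF12* and *KIF2B* were at 0 in both. *KIF12* is known from epithelia and *KIF2B* from the mitotic spindle. At or above 10 TPM in Rep2 there were 32 motor genes, and 1 of these (3.12%), *KLC4*, was listed at 0 in Rep1, as were 8.19% of all genes at that level. The motor genes summed to 2602 TPM in Rep1 and to 5193 TPM in Rep2, which is 0.260% and 0.519% of each library. The median over the motor genes was 3.44 TPM for Rep1 and 16.2 TPM for Rep2, whereas the median over all listed genes was 2.09 and 7.93 TPM. By mean level, 9 motor genes were at or above percentile 90 of the genes detected in either library, and the median of the motor genes was at percentile 59.1.

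The highest motor gene by mean level was *DYNC1LI2*, followed by *DYNLL1*, *KIF5B*, *KIF1A*, *DYNC1H1*, *DCTN2*, *DYNLRB1*, *KLC1*, *DCTN1* and *DYNC1I2*. Dynein, kinesin-1 and dynactin were each represented among the first 10. Their genes there encode the dynein heavy chain, common intermediate and light intermediate chains and light chains. The others encode the kinesin-1 heavy and light chains and the shoulder and arm of dynactin, apart from *KIF1A*. When the genes were ordered by their mean on the log2(TPM + 1) scale, none of the 59 pairs of neighbours differed by more than the SD of a single library, the largest gap being 0.392 SDs. This SD, with a median of 1.57 on the log2 scale over the motor genes, was estimated for each gene from how far Rep1 and Rep2 lay apart in 200 genes of similar level. The order of neighbours is therefore not resolved by these libraries. Neighbours in a sorted list lie close by construction, so this count cannot be set against the steps between paralogs. Of 25 pairs of paralogs or subunits compared, 16 were more than 1 SD apart and 8 more than 2 SDs. The pairs were chosen by name, and the share of all pairs of motor genes past these steps was not computed. The counts are therefore not a trait of paralogs.

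Kinesin-1 is the main carrier of mitochondria, lysosomes and many vesicles, and in oligodendrocytes of the RNA of myelin basic protein. *KIF5B*, its widely expressed heavy chain (chromosome 9, 32918633 to 32967831, minus strand, Mmul_10), was at 305 TPM in Rep1 and at 348 TPM in Rep2 (327 ± 30.9 TPM, SD, n = 2), values that rested on at least 983 and 19313 reads. *KIF5C*, a heavy chain enriched in neurons, was at 13.3 TPM in Rep1 and at 50.5 TPM in Rep2 (31.9 ± 26.3 TPM). *KIF5A*, the neuronal heavy chain (chromosome 11, 57125634 to 57163535, plus strand), was at 2.80 TPM in Rep1 and at 53.2 TPM in Rep2 (28.0 ± 35.7 TPM).
In the deposited values *KIF5B* was nearly level between the libraries (log2 difference -0.19), but it was higher in Rep1 by 0.996 on the log2 scale when Rep1 was scaled to Rep2 by the median of ratios over genes above 0 in both, which moved its mean to 522 TPM. Both neuronal forms were lower in Rep1 under either scaling, *KIF5A* by 19.0-fold in deposited TPM, from at least 5 reads. Among the summed heavy chains *KIF5B* took 95.0% in Rep1 and 77.1% in Rep2 (86.0 ± 12.7%, n = 2). It stood above *KIF5C* by 2.04 SDs and above *KIF5A* by 2.53 SDs. *KIF5C* and *KIF5A* differed by 0.548 SDs, and their order turned between the libraries.

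The light chains of kinesin-1 link the heavy chains to cargo and hold them inactive when cargo is missing. *KLC1* (chromosome 7, 165936442 to 166010258, plus strand) was at 50.1 TPM in Rep1 and at 227 TPM in Rep2 (138 ± 125 TPM). *KLC4* was listed at 0 in Rep1 but reached 30.3 TPM in Rep2. *KLC2* was at 2.25 TPM in Rep1 and at 3.58 TPM in Rep2 (2.92 ± 0.941 TPM), and *KLC3* was listed at 0 in Rep1 and at 0.456 TPM in Rep2.
*KLC1* was therefore the leading light chain in both libraries, with 95.7% of the summed light chain TPM in Rep1 and at 86.8% in Rep2 (91.3 ± 6.26%, n = 2), and lay 2.88 SDs above *KLC2*. The remainder belonged mostly to *KLC2* in Rep1 (4.30%) and to *KLC4* in Rep2 (11.6%). Among the 200 genes nearest to *KLC4* in level 14% were also listed at 0 in Rep1. The gene span of *KLC1* overlaps that of *XRCC3*, and that of *KLC4* overlaps that of *MRPL2*, on the opposite strand. Whether their exons overlap was not checked, and the use of strand in counting is not given in the sources used here. Whether reads of such neighbours entered these values therefore cannot be told.

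**Figure D1:**
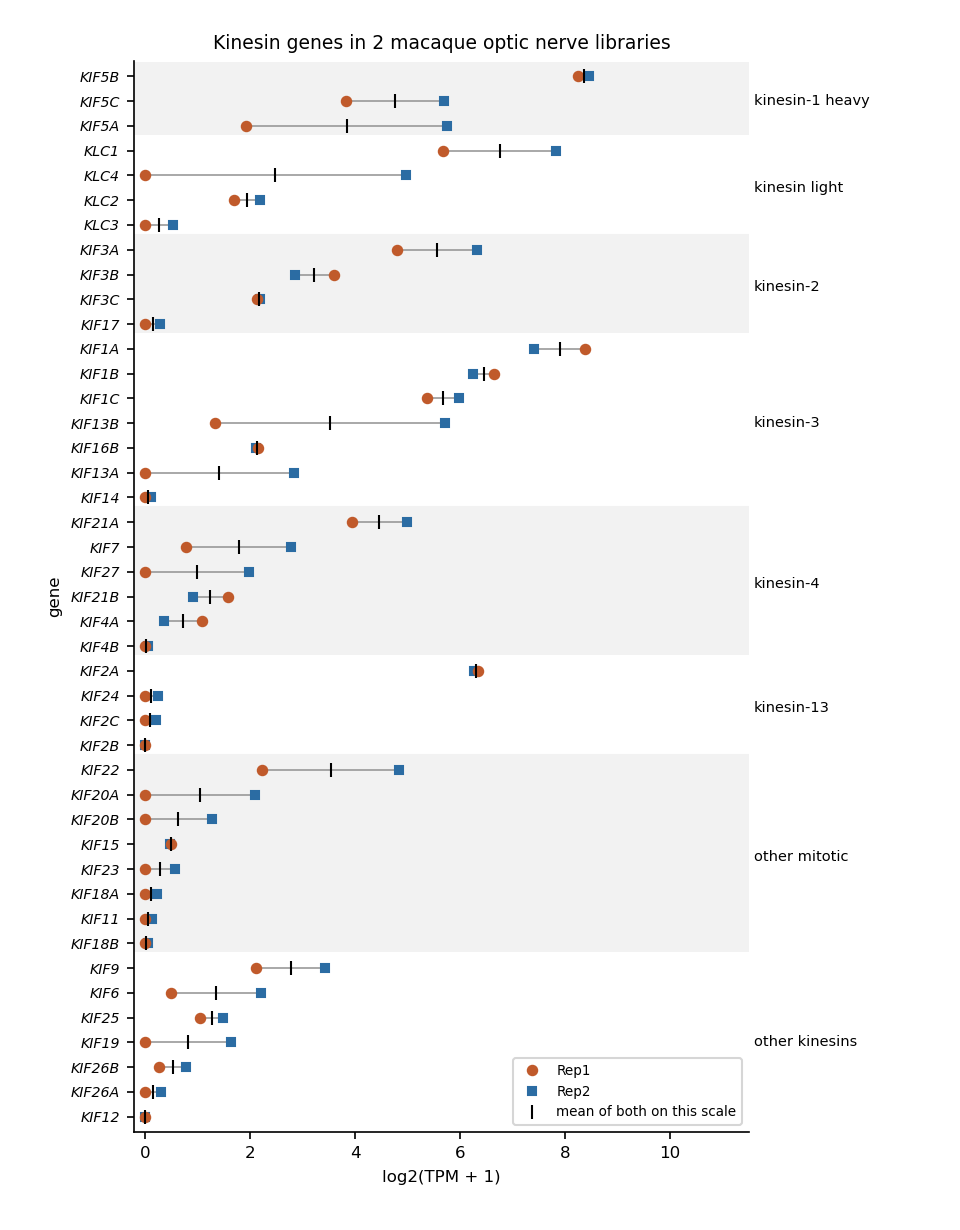
Levels of the 39 kinesin and 4 kinesin light chain genes, by class, in log2(TPM + 1). Circles are Rep1, squares are Rep2 and the tick is the mean of both on this scale. *KIF5B*, *KIF2A* and *KIF1B* show short lines between the libraries and high levels, *KLC4*, *KIF13B* and *KIF5A* show the longest lines, and among the other mitotic genes *KIF22* stands out at 27.8 TPM in Rep2, with the rest of that class at or below 3.26 TPM.

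The kinesin-3 class carries vesicles over long distances. *KIF1A*, which moves precursors of synaptic vesicles and dense core vesicles (chromosome 12, 128130071 to 128244709, minus strand), was at 332 TPM in Rep1 and at 170 TPM in Rep2 (251 ± 115 TPM), from at least 233 and 2048 reads. *KIF1B*, a carrier of mitochondria and synaptic vesicle precursors, was at 99.6 TPM in Rep1 and at 75.4 TPM in Rep2 (87.5 ± 17.1 TPM). *KIF1C*, a widely expressed form that carries dense core vesicles and integrins, was at 40.2 TPM in Rep1 and at 62.5 TPM in Rep2 (51.3 ± 15.8 TPM).
The order *KIF1A*, *KIF1B*, *KIF1C* held in both libraries, and the shares of *KIF1A* were 70.4% in Rep1 and 55.2% in Rep2, those of *KIF1B* 21.1% and 24.5% and those of *KIF1C* 8.51% and 20.3%. *KIF1A* was above *KIF1C* by 1.33 SDs, but *KIF1A* and *KIF1B* (0.841 SDs) and *KIF1B* and *KIF1C* (0.481 SDs) were less than 1 SD apart. *KIF1A* was higher in Rep1 by 1.95-fold in TPM, and neuronal markers such as *SNAP25* (1122 TPM in Rep1, 4.99 TPM in Rep2) and *SYT1* (769 and 11.8 TPM) were also higher there. In contrast, *NEFL* was at 3.63 and 3.65 TPM, and *THY1* at 203 and 1535 TPM. The part of these markers in the level of *KIF1A* was not tested.

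The other kinesin-3 genes were lower. *KIF13B*, which binds the scaffold Dlg and acts in myelinating cells, was at 1.51 TPM in Rep1, from at least 3 reads, and at 51.2 TPM in Rep2, the largest fold difference of any motor gene above 0 in both libraries (33.9-fold). *KIF16B*, a motor of early endosomes, was at 3.46 TPM in Rep1 and at 3.32 TPM in Rep2. *KIF13A*, which carries mannose 6-phosphate receptor vesicles, was listed at 0 in Rep1 and at 6.16 TPM in Rep2. *KIF14*, a motor of cytokinesis, was listed at 0 in Rep1 and at 0.0790 TPM in Rep2.
The class as a whole therefore held very unlike members, with 3 genes at or above 40.2 TPM in both libraries and 4 below that in Rep1.

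Kinesin-2 drives transport into cilia and, in neurons, of vesicles along the axon. Its subunit *KIF3A*, the partner common to the heterodimers, was at 26.8 TPM in Rep1 and at 79.4 TPM in Rep2 (53.1 ± 37.2 TPM). *KIF3B*, the usual second motor of the ciliary form, was at 11.1 TPM in Rep1 and at 6.23 TPM in Rep2 (8.64 ± 3.41 TPM). *KIF3C*, the alternative partner found mainly in neurons, was at 3.42 TPM in Rep1 and at 3.58 TPM in Rep2 (3.50 ± 0.115 TPM).
*KIF3A* exceeded the summed level of its partners in both libraries, with 64.9% in Rep1 and 89.0% in Rep2 of the *KIF3* genes, and was 1.46 SDs above *KIF3B* and 1.95 SDs above *KIF3C*. *KIF3A* overlaps *IL4* on the opposite strand. *KIF17*, the homodimeric kinesin-2 of cilia and dendrites, was listed at 0 in Rep1 and at 0.223 TPM in Rep2.

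Kinesin-13 motors do not walk but take microtubules apart from their ends. *KIF2A*, which trims the growth of axon branches, was at 79.9 TPM in Rep1 and at 76.4 TPM in Rep2 (78.1 ± 2.46 TPM), from at least 67 and 1101 reads. Its mitotic paralog *KIF2C* was listed at 0 in Rep1 and at 0.156 TPM in Rep2, and *KIF24*, which acts at centrioles, at 0 and 0.183 TPM. *KIF2A* thus held nearly all of the class in both libraries and was 5.16 SDs above *KIF2C*, the widest step between paralogs compared. The SD of a single library was 0.149 for *KIF2C*, near the floor of the log2(TPM + 1) scale, and 1.69 for *KIF2A*. The low SD at the floor widens this step.

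In the kinesin-4 class, *KIF21A*, which slows the growth of microtubules at the cell cortex, was at 14.4 TPM in Rep1 and at 30.8 TPM in Rep2 (22.6 ± 11.6 TPM). *KIF21B*, its neuronal and immune paralog, was at 2.0 TPM in Rep1 and at 0.879 TPM in Rep2 (1.44 ± 0.794 TPM). *KIF21A* lay 2.09 SDs above *KIF21B*. Among the rest of the class, *KIF7*, which regulates Hedgehog signalling at the tip of the cilium, was at 0.718 TPM in Rep1 and at 5.89 TPM in Rep2, and its paralog *KIF27* was listed at 0 in Rep1 and at 2.94 TPM in Rep2.

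Kinesins of cell division were low. Of the 12 kinesins grouped here as mitotic 9 were listed at 0 in Rep1, and 3, *KIF22*, *KIF15* and *KIF4A*, were above 0 in both libraries. *KIF2B*, at 0 in both libraries, was not one of the 12. Of all listed genes 38.5% were at 0 in Rep1, and among the 200 genes nearest in Rep2 level to each of the 9 the share was between 45% and 89.5%. Together the 12 reached 5.22 TPM in Rep1 and 34.2 TPM in Rep2. *KIF22*, which pushes chromosome arms to the spindle equator, was at 3.70 TPM in Rep1 and at 27.8 TPM in Rep2 and made up most of both sums. *KIF20A*, a motor of cytokinesis, was listed at 0 in Rep1 and at 3.26 TPM in Rep2. *KIF11*, which pushes the spindle poles apart, was listed at 0 in Rep1 and at 0.0946 TPM in Rep2. *KIF4A*, a motor of the spindle midzone, was at 1.12 TPM in Rep1 and at 0.293 TPM in Rep2, and the others lay between 0.0390 TPM (*KIF4B*) and 1.41 TPM (*KIF20B*) in Rep2.
The 10 markers of dividing cells had low sums as well, 13.7 TPM in Rep1 and 34.0 TPM in Rep2. Of these 7 were listed at 0 in Rep1, *MKI67* among them, and 38.5% of all listed genes were. The share among genes of like level was not computed for the markers. The highest were *TOP2A* at 8.53 TPM in Rep1, and *CENPF* at 12.3 TPM and *AURKB* at 9.54 TPM in Rep2. These were above the medians of all listed genes (2.09 and 7.93 TPM). *TOP2A* and *CCNB2* were higher in Rep1, and the other 8 markers were lower. Their part in the levels of the mitotic kinesins was not tested.

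The remaining kinesins included those of motile cilia. *KIF9*, a motor of the ciliary central pair, was at 3.33 TPM in Rep1 and at 9.80 TPM in Rep2. *KIF6*, which acts in the motile cilia of the ependyma, was at 0.415 TPM in Rep1 and at 3.65 TPM in Rep2. *KIF19*, which shortens motile cilia, was listed at 0 in Rep1 and at 2.13 TPM in Rep2.
These levels were low, and so were those of the motile cilium markers, with sums of 5.18 TPM in Rep1 and 15.2 TPM in Rep2. Of these markers 7 were in the table, 5 of them at 0 in Rep1, where 38.5% of all listed genes were. Their part in the kinesin values was not tested. *KIF25*, *KIF26A* and *KIF26B* reached at most 1.07 TPM in Rep1 and 1.81 TPM in Rep2, both in *KIF25*.

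Cytoplasmic dynein-1 is the motor of nearly all transport toward the cell body. Its heavy chain *DYNC1H1*, which holds the motor domain (chromosome 7, 164189318 to 164282405, plus strand), was at 74.7 TPM in Rep1 and at 403 TPM in Rep2 (239 ± 232 TPM). The light intermediate chains bind the adaptors that choose the cargo, and *DYNC1LI2* (chromosome 20, 53889663 to 53923363, minus strand) was at 319 TPM in Rep1 and at 1518 TPM in Rep2 (918 ± 848 TPM), from at least 195 and 15968 reads. Its paralog *DYNC1LI1* was at 24.0 TPM in Rep1 and at 80.2 TPM in Rep2 (52.1 ± 39.7 TPM).
*DYNC1LI2* was the highest dynein-1 subunit in both libraries, although 4.77-fold lower in Rep1 than in Rep2. It was 1.15 SDs above the heavy chain and 2.38 SDs above *DYNC1LI1*, and took 93.0% of the light intermediate chain TPM in Rep1 and at 95.0% in Rep2. An uncharacterized gene overlaps *DYNC1LI2* on the opposite strand.

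The intermediate chains bind dynactin and carry the light chains. *DYNC1I2*, the form found in most cells, was at 136 TPM in Rep1 and at 77.2 TPM in Rep2 (107 ± 41.9 TPM). *DYNC1I1*, the form enriched in neurons, was at 17.6 TPM in Rep1 and at 34.6 TPM in Rep2 (26.1 ± 12 TPM). *DYNC1I2* took 88.6% of the pair in Rep1 and 69.0% in Rep2 (78.8 ± 13.8%, n = 2), a step of 1.29 SDs.
In the deposited values *DYNC1I2* was also the only dynein-1 subunit higher in Rep1, and after the median of ratios *DYNC1I1* was higher as well (log2 difference -0.94 before and 0.21 after). From highest to lowest the order was *DYNC1LI2*, *DYNC1I2*, *DYNC1H1*, *DYNC1LI1* and *DYNC1I1* in Rep1, and *DYNC1LI2*, *DYNC1H1*, *DYNC1LI1*, *DYNC1I2* and *DYNC1I1* in Rep2. The ends of the order held, and the highest subunit exceeded the lowest by 18.1-fold in Rep1 and 43.9-fold in Rep2.

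**Figure D2:**
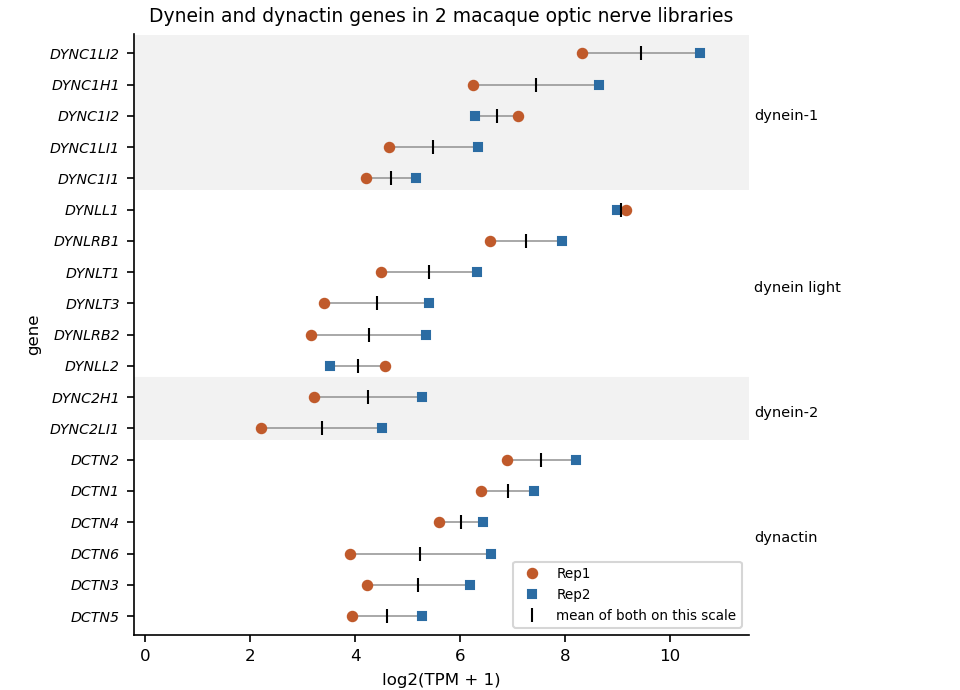
Levels of the 13 dynein and 6 dynactin genes, by complex, in log2(TPM + 1). Circles are Rep1, squares are Rep2 and the tick is the mean of both on this scale. All 19 genes are above 0 in both libraries, all 6 dynactin genes are lower in Rep1 in these deposited values (4 after the median of ratios), and *DYNLL1*, at 570 TPM in Rep1 and at 509 TPM in Rep2, has the shortest line.

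Dynein carries 3 families of light chains, LC8, roadblock and Tctex, and LC8 also binds many proteins outside dynein. The LC8 gene *DYNLL1* (chromosome 11, 120293363 to 120295833, plus strand) was at 570 TPM in Rep1 and at 509 TPM in Rep2 (539 ± 42.8 TPM), from at least 402 and 6173 reads. *DYNLL2* (chromosome 16, 38713438 to 38721247, minus strand) was at 22.9 TPM in Rep1 and at 10.5 TPM in Rep2 (16.7 ± 8.79 TPM).
*DYNLL1* thus made up 96.1% of the LC8 transcripts in Rep1 and 98.0% in Rep2 (97.1 ± 1.31%, n = 2), the smallest SD among the leading paralogs after that of *KIF2A*, and lay 2.89 SDs above *DYNLL2*. It was the highest motor gene of Rep1. In Rep2 *DYNC1LI2* was above it, and over both libraries the pair differed by 0.202 SDs.

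*DYNLRB1*, a roadblock light chain, was at 93.8 TPM in Rep1 and at 246 TPM in Rep2 (170 ± 108 TPM), and its paralog *DYNLRB2* at 7.99 TPM in Rep1 and at 40.1 TPM in Rep2 (24.0 ± 22.7 TPM). *DYNLT1*, a Tctex light chain, was at 21.7 TPM in Rep1 and at 78.8 TPM in Rep2 (50.2 ± 40.4 TPM), and *DYNLT3* at 9.66 TPM in Rep1 and at 41.7 TPM in Rep2 (25.7 ± 22.7 TPM).
All 4 were lower in Rep1, and the leading paralog was the same in both libraries in each family. *DYNLRB1* was 1.89 SDs above *DYNLRB2*, whereas *DYNLT1* and *DYNLT3* differed by 0.626 SDs, the only light chain pair less than 1 SD apart. Dynein-2, which returns material from the tip of the cilium, was represented by its heavy chain *DYNC2H1*, at 8.26 TPM in Rep1 and at 37.6 TPM in Rep2, and its light intermediate chain *DYNC2LI1*, at 3.64 TPM in Rep1 and at 21.9 TPM in Rep2.

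All 6 dynactin genes were above 0 in both libraries and lower in Rep1 in the deposited values, and after the median of ratios 4 were lower and 2, *DCTN1* and *DCTN4*, were higher. *DCTN2*, the dynamitin of the shoulder (chromosome 11, 57105434 to 57122695, minus strand, beside *KIF5A*), was at 118 TPM in Rep1 and at 294 TPM in Rep2 (206 ± 125 TPM). *DCTN1*, the arm that binds microtubules and the dynein intermediate chain (chromosome 13, 34428640 to 34459305, plus strand), was at 83.8 TPM in Rep1 and at 169 TPM in Rep2 (126 ± 60.2 TPM). *DCTN3*, the smaller shoulder subunit, was at 17.6 TPM in Rep1 and at 71.8 TPM in Rep2 (44.7 ± 38.3 TPM).
Of these shoulder and arm genes, *DCTN2* and *DCTN1* were 0.387 SDs apart. The subunits of the pointed end, which binds cargo adaptors, were *DCTN4*, at 47.3 TPM in Rep1 and at 86.0 TPM in Rep2 (66.6 ± 27.4 TPM), *DCTN5*, at 14.3 and 37.8 TPM (26.0 ± 16.6 TPM), and *DCTN6*, at 14 and 95.0 TPM (54.5 ± 57.3 TPM). *DCTN2* was first and *DCTN1* second in both libraries. *DCTN6* moved from last in Rep1 to the third place in Rep2, and the others kept their order. Among these 6 genes the highest exceeded the lowest by 8.43-fold in Rep1 and 7.80-fold in Rep2. This range leaves out the actin-related and capping subunits of dynactin. The wider range given for dynein-1 includes paralogs of the same subunit, so the complexes cannot be compared by it.

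**Figure D3:**
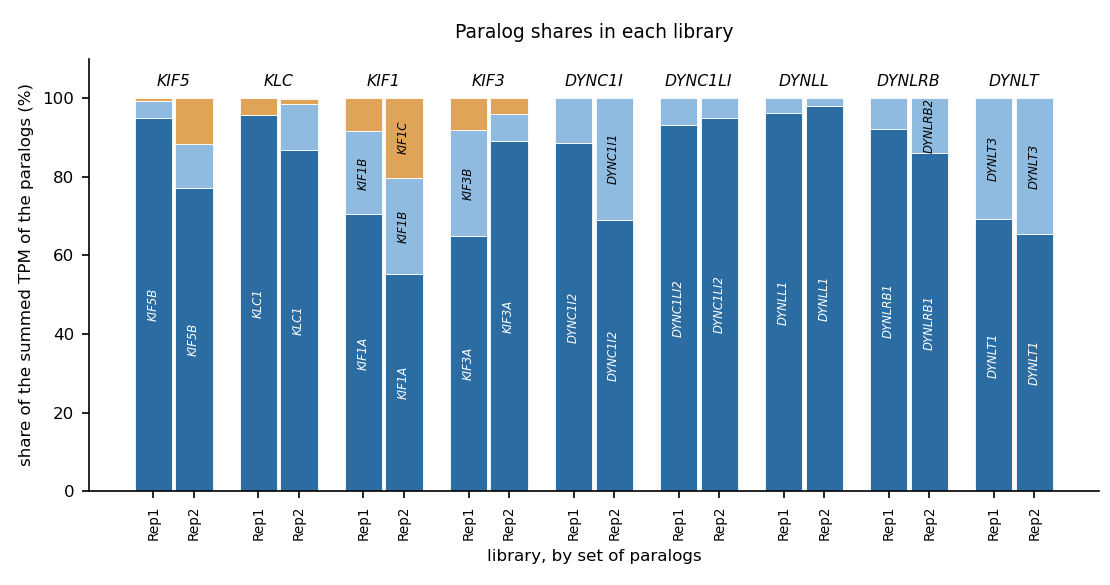
Share of each paralog in the summed TPM of its set, in percent, for 9 sets of motor genes, with a bar for Rep1 and a bar for Rep2. Each bar is stacked in the order of mean share, with the largest at the bottom and names given where the segment has room. The same paralog leads in both libraries in all 9 sets, from 55.2% for *KIF1A* in Rep2 to 98.0% for *DYNLL1* in Rep2.

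Shares within a set do not depend on how a library is scaled, but they can still follow the mix of cells, which differed between the libraries by the markers given above. In every set drawn in the plot of paralog shares the leading gene was the same in Rep1 and Rep2. The leading paralog was a form known from most cell types in the heavy chains (*KIF5B*), intermediate chains (*DYNC1I2*) and LC8 (*DYNLL1*). In the KIF1 genes it was *KIF1A*, known mainly from neurons. The leading paralogs of the other sets drawn were not classed by cell type, so no general pattern is drawn from these. The share of the neuronal forms was not the same in both libraries. *KIF5A* and *KIF5C* had larger shares in Rep2 (11.8% and 11.2%) than in Rep1 (0.873% and 4.13%), as did *DYNC1I1* (31.0% against 11.4%), but *KIF1A* had the larger share in Rep1, as did *KIF3C* (8.28% against 4.01%) and *KIF21B* (12.2% against 2.78%). With 2 libraries, these differences in share have no test.

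Compared between the libraries, 49 of the 60 motor genes above 0 in at least 1 library were lower in Rep1 (81.7%), where 75.9% of all such genes were, and the median difference on the log2(TPM + 1) scale was -0.97 against -1.07 for all genes. This scale understates the change of low genes. At least 2-fold lower in Rep1 were 30 motor genes (50%), against 51.3% of all genes, a share near the background. At least 2-fold higher was 1 motor gene, *DYNLL2* (1.67%), with a log2 difference of 1.06, against 14.8% of all genes.
When Rep1 was scaled to Rep2 by the median of ratios (a log2 shift of -1.19), 16 motor genes (26.7%) were at least 2-fold lower against 37.0% of all genes, and 10 (16.7%) at least 2-fold higher against 24.4% of all genes. The 10 were *DYNC1I2*, *DYNLL1*, *DYNLL2*, *KIF16B*, *KIF1A*, *KIF1B*, *KIF21B*, *KIF2A*, *KIF3B* and *KIF4A*. The median over the motor genes was then -0.24 and that over all genes -0.47. The dynactin genes, all lower in the deposited values with a median of -1.33, had a median of -0.17 after this scaling, and 1 of the 6 was still 2-fold lower. In all, 9 motor genes turned from lower to higher in Rep1. Of these *KIF21A* (-1.05 to 0.090) and *DCTN1* (-1.0 to 0.18) had been 2-fold lower, and the others were *KIF5B*, *KIF1C*, *KIF3C*, *KLC2*, *KIF25*, *DYNC1I1* and *DCTN4*.

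**Figure D4:**
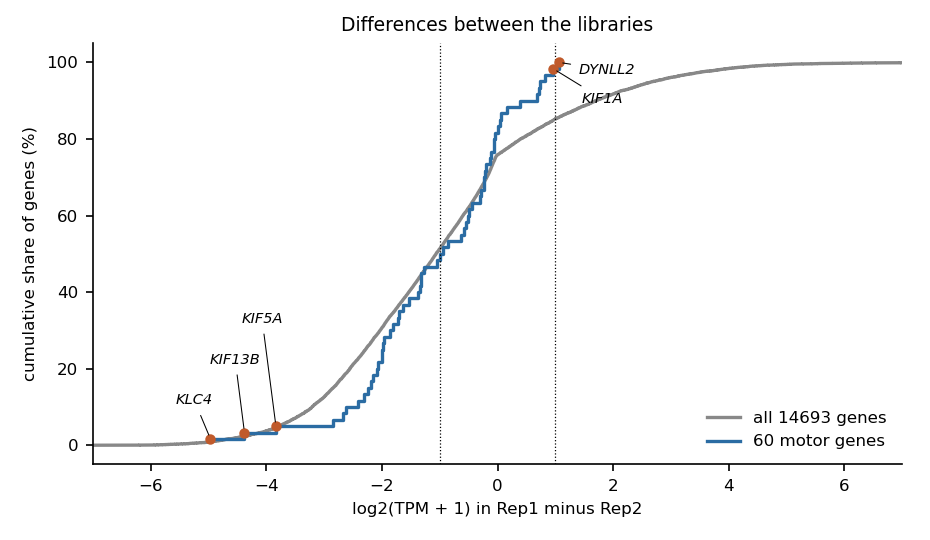
Cumulative share of genes, in percent, by the difference between the libraries in log2(TPM + 1), Rep1 minus Rep2, for all 14693 genes above 0 in at least 1 library and for the 60 motor genes among them. Dotted lines mark a 2-fold difference in each direction and dots mark 5 named genes. The curves lie close together around -1 (51.3% and 50% of genes at or beyond 2-fold lower) and part on the right, where the motor genes end at 1.06.

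The levels of the motor genes in the libraries had a Spearman rho of 0.903 and a Pearson r of 0.899 on the log2(TPM + 1) scale over 60 genes, against 0.719 and 0.708 over all 14693 genes. Genes share the library, its depth and its scaling and are not independent replicates. Of the 903 pairs among the 43 motor genes above 0 in both libraries, 766 (84.8%) stood in the same order in Rep1 and Rep2. For 17 of the 43 the smallest number of reads that the values allow in Rep1 was under 5, which is a lower bound and not a count.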

How the data were processed

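Total RNA of 2 untreated macaque optic nerves was sequenced. The authors checked reads with FastQC 0.11.9, trimmed them with Trim Galore 0.6.6, aligned them to Mmul_10 with STAR 2.7.1a and counted them with featureCounts 1.5.3, according to the submitters' processing notes and the methods. The deposited values are TPM, which the authors computed per gene from counts and gene lengths. The gene lengths, the use of strand and the handling of reads with several alignments are not given in the sources used here. The columns Rep1 and Rep2 could not be tied to sample titles and were used as libraries of the 1 condition, and 0 columns were left unused.

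Levels were taken as deposited, with mean and SD. Differences were taken on log2(TPM + 1), with a pseudocount of 1. For the SD of a single library, the differences in the 200 genes closest in mean level were pooled, about 0. Relative depth and smallest read numbers, which are lower bounds, came from ratios of the values written as whole numbers, at a tolerance of 1e-12 and with a product under 100000000. This gave whole reads for 99.9% of 10168 genes, with sums of at least 651121 reads in Rep1 and 8858237 in Rep2. TPM gives no interval or detection limit per gene. Scripts used Python 3.11.15, numpy 2.4.6, pandas 2.3.3, scipy 1.17.1 and matplotlib 3.10.9 and were tested on simulated data. Coding sequences and coordinates came from RefSeq for Mmul_10, where all 62 genes were found. Of these, 24 have a gene span, introns included, that overlaps an annotated gene on the opposite strand. In 3, *KIF4A*, *KIF4B* and *KIF25*, over 5% of the windows of 50 bases are shared with another gene. Some sequences are not reported here.

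The members, the lists and the alternatives were chosen with earlier results of these data known. The rule for named genes took all kinesin-1, dynein-1, dynein light chain and dynactin genes, the KIF1, KIF2, KIF3 and KIF21 paralogs, the 10 highest, any at least 2-fold higher in Rep1 and any at 0 in both, then the highest of each other class. *KIF11*, *DYNC2H1*, *DYNC2LI1* and single markers were added after their values were seen. Of binding partners it took the 5 highest and the other dynactin subunits. Alternatives were the median of ratios as scaling, removal of the 10 most abundant genes, a pseudocount of 0.1, a minimum mean of 1 TPM, the geometric mean, the 500 nearest genes, and each library alone.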

Additional observations from a re-analysis of the deposited data

How the results depend on the processing

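No paired analysis was possible because there is 1 condition and the columns cannot be matched across groups. The median level of the motor genes was 14 TPM by mean of the libraries, 26.1 TPM with only genes of a mean of at least 1 TPM, and in single libraries 3.44 to 16.2 TPM. The number at least 2-fold lower in Rep1 was 30, and with the median of ratios as scaling 16. The number at least 2-fold higher was 1, and 10 after that scaling, 0 with the 10 most abundant genes left out and 3 with a pseudocount of 0.1. The scaling multiplies Rep1 by 2.28, which turned 9 motor genes from lower to higher in Rep1. Of these, *KIF21A* (0.090) and *DCTN1* (0.18) had been 2-fold lower. With the SD taken about the local mean difference, chosen after seeing the data, 2 neighbouring levels were over 1 SD apart, as this SD leaves out the general shift. From a single library, 43 to 60 motor genes were above 0, and the shares ran from 77.1 to 95.0% for *KIF5B*, 86.8 to 95.7% for *KLC1*, 8.51 to 20.3% for *KIF1C*, 96.1 to 98.0% for *DYNLL1* and 69.0 to 88.6% for *DYNC1I2*. Of the 62 mean levels, 17 moved by over 1 SD under the median of ratios and 7 with the 10 most abundant genes left out. With a pseudocount of 0.1, 18 of the log2 differences moved by more than their SD. The log2 differences of each gene under these alternatives were added after seeing the data. Where not stated, the cause was not tested. The depth of Rep1 limits the low genes, and a listed 0 there is not proof of absence.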

Other observations

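Of 38 partner genes of the motors and related genes, 24 (63.2%) were lower in Rep1, where 75.9% of all genes above 0 in at least 1 library were. With the median of ratios as scaling 16 (42.1%) were lower, against 64.8% of all genes. Dynactin is built on a short filament of actin-related proteins closed by the actin capping proteins. *ACTR1A*, which forms the filament, was at 68.7 TPM in Rep1 and at 72.8 TPM in Rep2 (70.7 ± 2.94 TPM, SD, n = 2). *ACTR1B* was at 12.9 and 21.7 TPM, and *ACTR10*, at the pointed end, at 73.8 and 135 TPM. In the deposited values these 3 genes were lower in Rep1, *ACTR1A* with a log2 difference of -0.08, and after the median of ratios all 3 were higher (log2 differences of 1.10, 0.42 and 0.32).

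The capping genes were higher in Rep1 under either scaling. *CAPZA2* was at 5150 TPM in Rep1 and at 359 TPM in Rep2, *CAPZB* at 1823 and 172 TPM, and *CAPZA1* at 361 and 51.5 TPM. They cap actin filaments throughout the cell and are not particular to dynactin.

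Of 12 dynein adaptors and regulators 11 were in the table, 7 lower and 4 higher in Rep1 (4 and 7 with that scaling). *NDEL1*, which ties dynein to its regulator Lis, was at 513 TPM in Rep1 and at 187 TPM in Rep2 (350 ± 231 TPM). Of 22 kinesin partners and related genes 21 were in the table, 14 lower and 7 higher in Rep1 (12 and 9 with it). *FEZ1*, an adaptor that activates kinesin-1, was at 134 TPM in Rep1 and at 701 TPM in Rep2 (418 ± 401 TPM). *TRAK2*, which joins kinesin-1 and dynein to mitochondria, was at 81.6 TPM in Rep1 and at 467 TPM in Rep2 (274 ± 273 TPM). The libraries carry 1 condition, so these differences were not tested.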
